A study of Mus musculus with 24 samples.

Results

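The 8 genes described here encode the enzymes that write and remove DNA methylation and their main targeting factor: the DNA methyltransferases Dnmt1, Dnmt3a and Dnmt3b, their cofactor Dnmt3l, the Dnmt1 recruiter Uhrf1, and the dioxygenases Tet1, Tet2 and Tet3. They were chosen by gene symbol, taking the probe set of highest mean for each symbol, and all 8 were on the array with 1 probe set each, out of 19505 genes measured. Expression was measured in whole tibialis anterior, a fast muscle of the lower leg, from 24 mice on a C57BL/6J background. The sample titles name no treatment. Both sexes were studied, with 6 wild-type (WT) and 6 Vps39+/- mice in each. The Vps39 protein belongs to the HOPS complex, which helps autophagosomes and endosomes fuse with lysosomes, and the Vps39+/- mice carried 1 germ-line allele disrupted by a cassette in the second exon, in every tissue and from conception. Mice without any intact allele die as embryos, so only a partial loss could be studied, and mice aged 4 to 5 months were used. The question was whether the enzymes of DNA methylation differ in muscle between the genotypes, within each sex and between the sexes.

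DNA methylation in mammals is the addition of a methyl group to cytosine, mostly where cytosine is followed by guanine (CG). Dnmt3a and Dnmt3b place new marks, aided in germ cells by the catalytically inactive Dnmt3l, while Dnmt1, brought to newly copied DNA by Uhrf1, keeps existing marks through cell division. The Tet enzymes oxidise methylcytosine to hydroxymethylcytosine and beyond, using oxygen, iron and 2-oxoglutarate, after which base excision repair or replication can return an unmethylated base. Muscle fibres are postmitotic, so most cells that copy DNA in an adult muscle are interstitial or stem cells.

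Skeletal muscle fibre genes dominated every library, with group means of a 16-gene list from 12.79 to 12.81 on the log2 scale. The sums and means below come from whole tissue, so fewer cells of a type and less RNA per cell cannot be told apart. Genes typical of liver varied widely between mice: the mean of 22 such genes ran from 4.75 to 11.28 per array, and it was highest in WT females 2 and 6 and in Vps39+/- males 2 and 3. These 4 arrays were left out as a check. They are the top of a range and not a separate set, with WT female 3 next at 8.04. Liver genes therefore also vary among the other arrays. Differences that move by over 1.5 times without the 4 arrays are given both ways. Vps39 itself was not lower in the mice labelled Vps39+/-, with a median of 7.94 (6.67 to 8.29, n = 12) against 7.52 (6.70 to 8.21, n = 12) in WT, a difference of 0.34 (adjusted p = 0.709, limma). The sources used here do not place its probes relative to the disrupted exon, so this level does not check the labels, and genotype is used below as labelled.

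The promoter-side sequences of 4 of the genes are shown because the results below turn on them: Tet2 gave the only difference past the adjusted threshold, Dnmt3b gave the highest genotype difference, and Dnmt1 and Uhrf1 form the maintenance pair. Each window is 300 bases long, reaching from upstream of an annotated start to just past it, as given by RefSeq for build GRCm38.p6, and where a gene had several windows the one with most CG is printed. All 8 genes had at least 1 window among 32851. In the next 2 sequences, capitals mark every CG.
Tet2 (chr3:133544341-133544640, minus strand): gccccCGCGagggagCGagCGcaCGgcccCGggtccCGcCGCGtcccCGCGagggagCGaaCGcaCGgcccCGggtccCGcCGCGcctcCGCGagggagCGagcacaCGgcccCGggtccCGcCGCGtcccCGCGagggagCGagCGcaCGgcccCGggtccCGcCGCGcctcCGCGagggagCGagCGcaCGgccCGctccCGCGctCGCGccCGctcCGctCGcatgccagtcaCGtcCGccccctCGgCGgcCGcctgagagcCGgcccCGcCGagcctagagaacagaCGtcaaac
Dnmt3b (chr2:153649199-153649498, plus strand): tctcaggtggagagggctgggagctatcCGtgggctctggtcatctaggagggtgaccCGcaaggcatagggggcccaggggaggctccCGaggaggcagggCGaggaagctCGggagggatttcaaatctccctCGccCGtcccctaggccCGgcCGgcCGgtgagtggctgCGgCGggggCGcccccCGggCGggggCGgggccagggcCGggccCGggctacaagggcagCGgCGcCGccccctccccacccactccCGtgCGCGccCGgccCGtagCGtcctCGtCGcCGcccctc
The Tet2 window held 57 CG, more than 99.8% of all windows, and the Dnmt3b window held 30, more than 88.3%. The median window held 7. Windows of Dnmt3a were similarly rich (18 to 47 CG in 3 windows), while those of Dnmt3l held 3 to 6.

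Dnmt1 and Uhrf1 are known as genes expressed when cells enter DNA synthesis, a phase in which E2F transcription factors are active. Their windows were therefore searched for 2 words of the E2F type, TTTCGCGC and TTTGGCGC, on both strands, and capitals mark the matches.
Dnmt1 (chr9:20952574-20952873, minus strand): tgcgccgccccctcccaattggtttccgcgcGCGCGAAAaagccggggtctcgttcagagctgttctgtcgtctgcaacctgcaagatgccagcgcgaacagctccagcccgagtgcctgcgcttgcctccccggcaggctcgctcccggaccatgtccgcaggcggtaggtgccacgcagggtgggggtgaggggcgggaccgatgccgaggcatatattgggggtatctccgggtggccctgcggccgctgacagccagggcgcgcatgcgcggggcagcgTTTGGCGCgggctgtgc
Uhrf1 (chr17:56304063-56304362, plus strand): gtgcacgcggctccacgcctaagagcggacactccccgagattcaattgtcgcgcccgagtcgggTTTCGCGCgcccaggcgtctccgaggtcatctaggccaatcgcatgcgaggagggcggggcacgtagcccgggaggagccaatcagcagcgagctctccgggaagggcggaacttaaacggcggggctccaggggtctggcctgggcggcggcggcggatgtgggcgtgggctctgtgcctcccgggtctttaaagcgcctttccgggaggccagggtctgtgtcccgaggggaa
The Dnmt1 window held 2 matches and the Uhrf1 window held 1, and no window of the other 6 genes held either word. The other windows of Dnmt1 and Uhrf1 held neither word. Of all windows, 0.81% held at least 1 of the words. Both words contain CG, and the 2 printed windows held 33 CG each, more than 91.4% of windows. The share among windows equally rich in CG was not measured. A match is a run of letters and was not tested as a binding site.

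The first measurement was how far each gene lay above background. The reference was a panel of 1447 genes for smell, pheromone and taste receptors, most of which are not known to act in muscle, and a gene counted as above background on an array when it exceeded the panel's 95th percentile there. The panel's median lay between 2.81 and 3.06 per array and its 95th percentile between 4.48 and 4.76. Dnmt3a, Tet2 and Tet3 stood far above it, by 4.43, 4.41 and 4.24 on the log2 scale (means over 24 arrays), each on 24 of 24 arrays. Uhrf1 was 3.10 above the panel's median, Dnmt1 2.69 and Dnmt3l 2.28, also on 24 of 24 arrays. Tet1 was 1.99 above the median and passed on 18 of 24 arrays, and it lay below the limit on the other 6.

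Dnmt3b, the de novo methyltransferase best known from embryonic tissue, was not above background on any of 24 arrays. Its mean distance from the panel's median was 0.57, and its median position was the 72.3rd percentile of the panel. The reference changes how the middle genes are placed. Against the dimmest genes of the table by mean, Tet1 passed on 24 of 24 arrays. Those genes were picked by low mean in these same arrays, and their 95th percentile lay between 4.14 and 4.27. As the lowest Tet1 value was 4.34, this pass follows from how the reference was picked. Dnmt3b, at the 16.5th percentile of all genes by mean, is itself among them. Against the array's own 5222 negative control probe sets, whose 95th percentile lay between 6.16 and 6.43, only Dnmt3a, Tet2 and Tet3 passed on 24 of 24 arrays, Uhrf1 passed on 3, and Dnmt1, Dnmt3l and Tet1 passed on 0. A change of reference moves all genes of an array alike, so it could not change which 3 genes were at the top. Dnmt3a, Tet2 and Tet3 did pass on 24 of 24 arrays with every reference tried. Dnmt3b, with a highest value of 3.99, lay below every limit. The lowest of these limits, 4.14, came from the dimmest genes, a set picked by low mean that includes Dnmt3b, so that comparison adds no separate support. Probe sets differ in how strongly they bind, so these distances say how far a signal is from background and do not rank the transcripts by abundance.

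**Figure D1:**
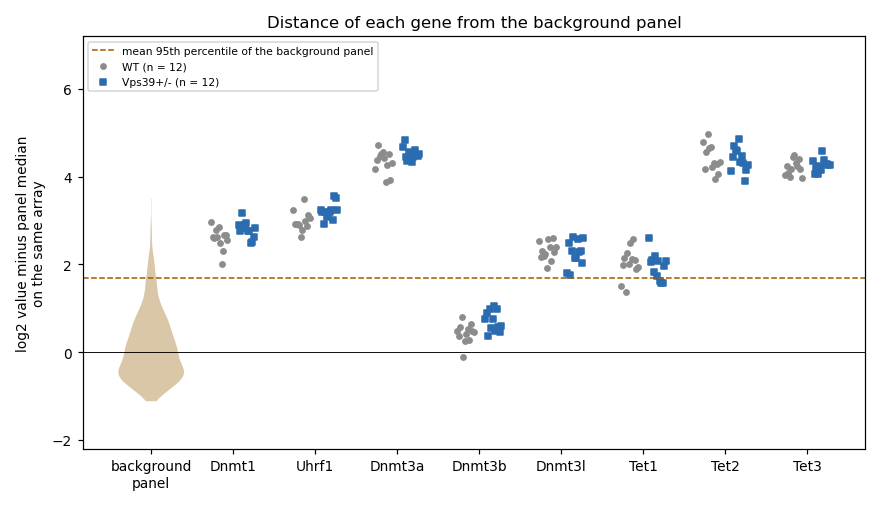
Distance of each gene from the background panel on the same array (log2 scale), with WT mice as grey circles, Vps39+/- mice as blue squares (n = 12 each), the spread of the 1447 panel genes as a shaded shape and their mean 95th percentile as a dashed line. Dnmt3a, Tet2 and Tet3 sit more than 3 log2 units above the panel's median on every array, Tet1 straddles the line and Dnmt3b lies below it on all 24 arrays.

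The genotype comparison set 12 Vps39+/- mice against 12 WT mice. None of the 8 genes passed an adjusted p of 0.05, and neither did any other gene (0 of 19572 probe sets, 0% called, limma). At an unadjusted p under 0.05, 3 of the 8 genes were reached, Dnmt3b, Uhrf1 and Dnmt1, all with higher values in Vps39+/- mice, against 7.34% of all probe sets (4.72% higher and 2.62% lower). The median difference over the 8 genes was 0.10, beside 0.01 over all genes.

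The maintenance pair had the same sign in both sexes. Dnmt1 had medians of 5.67 in WT females (5.43 to 5.94), 5.83 in Vps39+/- females (5.74 to 6.12), 5.50 in WT males (4.99 to 5.73) and 5.64 in Vps39+/- males (5.44 to 5.76). The genotypes overlapped in each sex, with 1 Vps39+/- mouse above all WT mice of its sex in both. The difference over 24 mice was 0.19 (SE 0.09, 95% interval 0.01 to 0.37, unadjusted p = 0.0444, adjusted p = 0.675, limma), and 10 of 12 Vps39+/- mice lay above the WT mean.

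Uhrf1, whose protein recognises DNA methylated on only 1 strand after replication, showed medians of 5.87 in WT females (5.51 to 6.22), 6.10 in Vps39+/- females (5.87 to 6.18), 6.00 in WT males (5.76 to 6.47) and 6.17 in Vps39+/- males (5.97 to 6.54). The Vps39+/- females fell wholly inside the WT range, and in males 1 Vps39+/- mouse exceeded all WT mice. The difference was 0.21 (SE 0.09, 95% interval 0.02 to 0.39, adjusted p = 0.636), with 11 of 12 Vps39+/- mice above the WT mean. It was 0.22 in females and 0.20 in males (adjusted p = 0.632 and 0.774). WT females 2 and 6, both rich in liver genes, had Uhrf1 values of 5.72 and 5.51, below the lowest of the 20 other arrays (5.76). Without the 4 liver-rich arrays the difference was 0.16 over all mice, 0.10 in females and 0.28 in males (adjusted p = 0.745, 0.937 and 0.802). No correlation between Dnmt1 and Uhrf1 was shown over the mice (Pearson's r = -0.15, permutation p = 0.487, Spearman's rho = 0.08, permutation p = 0.715, n = 24). Without the 2 mice farthest from the median of Dnmt1, r was 0.06.

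Among the de novo enzymes, Dnmt3a is the form known from adult tissues. Its medians were 7.44 in WT females (7.14 to 7.68), 7.45 in Vps39+/- females (7.34 to 7.801), 7.26 in WT males (6.84 to 7.49) and 7.44 in Vps39+/- males (7.27 to 7.56). Both lowest values of the series were from WT males, and the groups overlapped in each sex. The difference was 0.16 over all mice (SE 0.08, 95% interval 0.00 to 0.33, unadjusted p = 0.0536, adjusted p = 0.681). In males it was 0.22, with 6 of 6 Vps39+/- mice above the WT mean (adjusted p = 0.713), and in females 0.11, with 4 of 6 (adjusted p = 0.821). The female value was unsteady, at 0.07 without the 4 liver-rich arrays, 0.04 to 0.16 when each mouse was left out (0.04 without Vps39+/- female 2, 0.16 without WT female 3) and 0.24 with the title number as a block, where males had 0.18.

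Dnmt3b had the highest genotype difference of the 8 genes and the lowest signal. Its values ran from 2.84 to 3.78 in WT females (median 3.32) and from 3.33 to 3.97 in Vps39+/- females (median 3.69). In males they ran from 3.22 to 3.62 in WT (median 3.47) and from 3.42 to 3.99 in Vps39+/- (median 3.54). In all, 4 of 12 Vps39+/- mice lay above every WT mouse, and the remaining ranges overlapped. The difference was 0.27 (SE 0.10, 95% interval 0.07 to 0.47, unadjusted p = 0.0110, adjusted p = 0.573, limma), with 11 of 12 Vps39+/- mice above the WT mean, and a permutation test of this gene alone gave p = 0.0138. It ranked 375th of 19572 by p.

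By sex, the Dnmt3b difference was 0.34 in females (6 of 6 mice, adjusted p = 0.573, exact permutation p = 0.0649) and 0.19 in males (4 of 6 mice, adjusted p = 0.809, exact permutation p = 0.182). The interaction, the male minus the female effect, was -0.16 (adjusted p = 0.889), so a difference between the sexes was not shown. Each sample title holds a number in front of a point, which no source explains. Within each number that held both genotypes the Dnmt3b difference was above 0. It was 0.27 for number 1, 0.38 for number 2, 0.14 for number 4 and 0.47 for number 7. Number 7 also separates WT females from Vps39+/- males. In numbers 2 and 4 all WT mice were male, while the Vps39+/- mice were of both sexes. Only number 1 held both sexes of both genotypes. Without the 4 arrays rich in liver genes the Dnmt3b difference was 0.22 (adjusted p = 0.702, limma) and the interaction -0.09 (adjusted p = 0.982). Dnmt3b lies on chromosome 2, as does Vps39, and linked strain differences were not tested.

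Dnmt3l, which has no catalytic activity of its own, had group medians of 5.18 in WT females (4.80 to 5.52), 5.18 in Vps39+/- females (4.72 to 5.55), 5.37 in WT males (5.02 to 5.57) and 5.26 in Vps39+/- males (5.00 to 5.53). All 4 groups overlapped. The genotype difference was -0.06 (95% interval -0.27 to 0.16, adjusted p = 0.946), and 6 of 12 Vps39+/- mice lay below the WT mean. Without the 4 liver-rich arrays the difference was -0.17 over all mice (adjusted p = 0.782) and -0.15 in each sex.

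**Figure D2:**
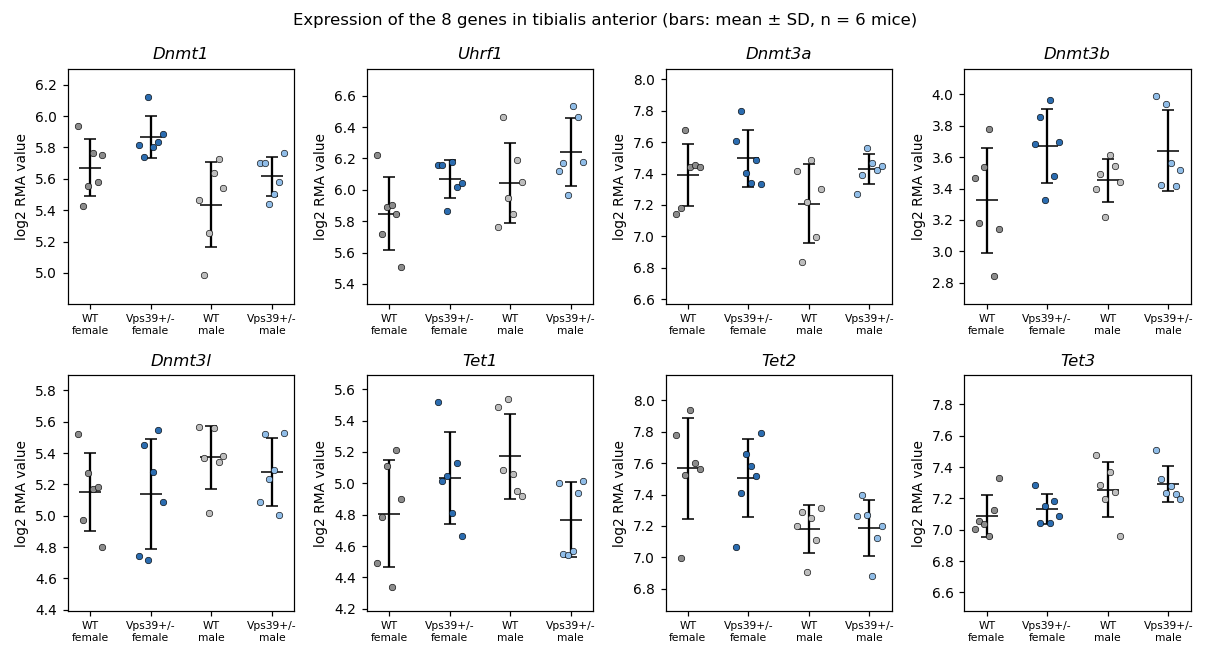
Log2 RMA value of each gene in every mouse, by genotype and sex, with mean and SD (n = 6 per group) and an axis of the same length in every panel. The groups overlap in all panels, Tet2 values are lower in males, and Tet1 values point in opposite directions in the 2 sexes.

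The Tet genes showed a different picture, with no shared direction by genotype. Tet1, the family member best known from embryonic stem cells, had values from 4.34 to 5.21 in WT females (median 4.84) and from 4.66 to 5.52 in Vps39+/- females (median 5.03). In males the order was turned, from 4.92 to 5.54 in WT (median 5.07) and from 4.54 to 5.02 in Vps39+/- (median 4.75). Of the 6 Vps39+/- males, 3 lay below every WT male, near 4.55, and the other 3 fell near 5.0. Over 24 mice the difference was -0.09 (adjusted p = 0.924), and -0.05 without the 4 liver-rich arrays (adjusted p = 0.968).

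Within males the Tet1 difference was -0.40 (SE 0.16, 95% interval -0.73 to -0.07, unadjusted p = 0.0182, adjusted p = 0.660, limma), with 6 of 6 Vps39+/- males below the WT mean and an exact permutation p of 0.0281. In females it was 0.23 (95% interval -0.10 to 0.55, adjusted p = 0.725), with 5 of 6 Vps39+/- mice above the WT mean. The interaction was -0.63 (SE 0.22, 95% interval -1.09 to -0.17, unadjusted p = 0.0100, adjusted p = 0.632). Tet1 was the only 1 of the 8 genes with an unadjusted p under 0.05 in males, where 7.00% of all probe sets reached that level (3.19% higher and 3.82% lower). It was also the only 1 for the interaction, where 7.79% did (3.16% higher and 4.63% lower). In females Dnmt3b was the only 1, where 8.32% did (5.36% higher and 2.96% lower). No gene passed the adjusted threshold in females, in males or for the interaction (0% called in each).

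The 4 liver-rich arrays include 2 of the 3 Vps39+/- males with the lowest Tet1. Without those arrays the difference in males was -0.29 (adjusted p = 0.869) and the interaction -0.54 (adjusted p = 0.905). With the title number as a block, the interaction was -1.01 (adjusted p = 0.167) and the difference in females 0.43 (adjusted p = 0.311), but number 1 was the only 1 that held females of both genotypes. The 3 lowest Vps39+/- males carried the numbers 1, 2 and 4. All 3 lay below the panel's 95th percentile, as did 0 of 6 WT males. All 6 Vps39+/- males passed against the table's dimmest genes, a reference picked by low mean in these same arrays.

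Endothelial genes had interactions of the same sign as Tet1, and liver genes of the opposite sign. All 9 measured endothelial genes had negative interactions (median -0.20), 2 of them at an unadjusted p under 0.05, the growth factor receptors Flt1 (-0.39) and Kdr (-0.55), which were named after their values were seen, and 0 passed the adjustment. The endothelial mean ran from 7.49 to 8.03 in WT females, from 7.86 to 8.04 in Vps39+/- females, from 7.63 to 7.91 in WT males and from 7.60 to 7.95 in Vps39+/- males. All 22 liver genes had positive interactions (median 2.57). So did 8 of 9 macrophage genes (median 0.20) and 5 of 7 adipocyte genes (median 0.51), while 6 of 8 lymphocyte genes had negative ones (median -0.09). No gene of these lists passed the adjustment. The part of any of them in the Tet1 values was not tested.

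Tet2 and Tet3, the Tet genes far above background, differed little by genotype. Tet2 had a difference of -0.03 (95% interval -0.26 to 0.21, adjusted p = 0.983), and 6 of 12 Vps39+/- mice lay below the WT mean. Tet3 had a difference of 0.04 (95% interval -0.09 to 0.18, adjusted p = 0.931). The intervals leave room for a change of Tet2 of up to 0.26 and of Tet3 of up to 0.18 on the log2 scale. Within each sex the differences of both genes lay between -0.06 and 0.05. Without the 4 liver-rich arrays Tet2 had -0.04 over all mice, -0.21 in females and -0.06 in males, and Tet3 had 0.10 in females (adjusted p = 0.969, 0.866, 0.971 and 0.910).

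**Figure D3:**
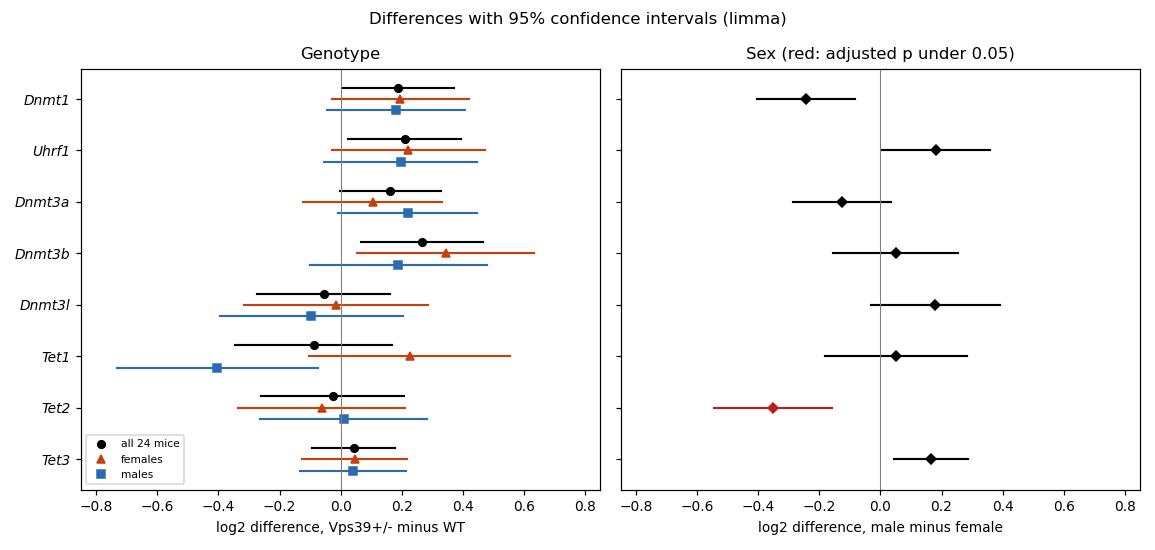
Log2 differences with 95% confidence intervals from limma, for genotype (left, all 24 mice as black circles, females as orange triangles, males as blue squares) and for sex (right, male minus female). Only the Tet2 difference between the sexes passes the adjusted threshold, drawn in red, and the Tet1 differences of females (0.23) and males (-0.40) lie on opposite sides of 0.

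Between the sexes 661 probe sets passed the adjusted threshold, against 0 between the genotypes. Tet2 was lower in males, and it was the only 1 of the 8 genes past an adjusted p of 0.05, where 3.38% of all probe sets were called (1.98% higher and 1.39% lower). Its values ran from 6.99 to 7.94 in WT females (median 7.58) and from 7.07 to 7.79 in Vps39+/- females (median 7.55). They ran from 6.90 to 7.32 in WT males (median 7.22) and from 6.88 to 7.399 in Vps39+/- males (median 7.23). Of 12 females, 10 lay above every male, and the other 2, WT female 2 and Vps39+/- female 1, fell among the males. Tet2 fell by 0.35 from females to males (SE 0.09, 95% interval -0.55 to -0.16, adjusted p = 0.0360, limma), with 12 of 12 males below the female mean and a permutation p of 0.00152.

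The Tet2 call lay close to the threshold. Leaving out any 1 of 11 of the 24 mice raised the adjusted p to between 0.0531 and 0.0655, with differences from -0.35 to -0.31. These were WT females 1, 4 and 5, WT males 3 and 5, Vps39+/- females 3, 4, 5 and 6, and Vps39+/- males 4 and 5. With the arrays' medians made equal it was -0.34 (adjusted p = 0.0541), and with the title number as a block -0.31 (adjusted p = 0.171). Within the numbers it was -0.09 for number 1 (4 males, 5 females) and -0.41 for number 2 (3 males, 2 females). It was -0.69 for number 4 (3 males, 1 female) and -0.42 for number 7 (2 males, 2 females). In number 7 the males were Vps39+/- and the females WT, so sex and genotype cannot be told apart there. In numbers 2 and 4 all females were Vps39+/- and most males WT, so sex and genotype were partly mixed there too. Only number 1 held both genotypes in both sexes. Without the 4 liver-rich arrays the Tet2 difference was -0.46 (adjusted p = 0.00633).

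Genes typical of liver and of macrophages were also compared between males and females. The highest liver mean (11.28) and the highest macrophage mean (6.58) were both from WT female 2. All 22 liver genes had lower values in males (median -0.94), with 0 past the adjusted threshold, and all 9 macrophage genes had lower values in males, with C1qa, a complement component made by macrophages, past it. The macrophage mean ran from 5.58 to 6.58 in WT females, from 5.61 to 6.11 in Vps39+/- females, from 5.16 to 5.88 in WT males and from 5.40 to 5.88 in Vps39+/- males. With the liver mean as a covariate the Tet2 difference was -0.38 (adjusted p = 0.0304). The part of macrophages in the Tet2 difference was not tested. The running number at the start of each title follows the groups, so an order of processing cannot be told apart from sex or genotype.

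Dnmt1 came next, with a difference of -0.24 (SE 0.08, adjusted p = 0.0876), and 12 of 12 males lay below the female mean. Tet3 had the opposite sign, 0.17 (SE 0.06, adjusted p = 0.138), with 11 of 12 males above the female mean and 3 males above every female. Uhrf1 had 0.18 (adjusted p = 0.302), Dnmt3l 0.18 (adjusted p = 0.415), Dnmt3a -0.13 (adjusted p = 0.461), and Dnmt3b and Tet1 0.05 each (adjusted p = 0.861 and 0.876). Without the 4 liver-rich arrays Dnmt3l had 0.09, Tet1 0.12 and Dnmt3b -0.00074 (adjusted p = 0.774, 0.735 and 0.998). At an unadjusted p under 0.05, 4 of the 8 genes were reached, Tet2 and Dnmt1 with lower and Tet3 and Uhrf1 with higher values in males, against 15.6% of all probe sets (8.53% higher and 7.12% lower). The maintenance pair, which shared a sign by genotype, thus had opposite signs by sex.

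By group, Tet2 was ordered as WT females (7.57 ± 0.32, mean ± SD), Vps39+/- females (7.504 ± 0.25), Vps39+/- males (7.19 ± 0.18) and WT males (7.18 ± 0.15), and only the step between the sexes exceeded the SD of the male groups. Dnmt1 was ordered as Vps39+/- females (5.87 ± 0.13), WT females (5.67 ± 0.18), Vps39+/- males (5.61 ± 0.13) and WT males (5.44 ± 0.27). Tet3 was ordered as Vps39+/- males (7.29 ± 0.11), WT males (7.25 ± 0.17), Vps39+/- females (7.13 ± 0.09) and WT females (7.09 ± 0.13). In Dnmt1 and Tet3 each neighbouring pair of groups lay within 0.20, and their ranges overlapped.

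Over the 28 pairs of the 8 genes, Dnmt1 and Tet2 had the strongest relation (Pearson's r = 0.55, permutation p = 0.00484, adjusted over the pairs 0.136, Spearman's rho = 0.59, permutation p = 0.00264, adjusted 0.0739, n = 24). Without the 2 mice farthest from the median of Dnmt1, r was 0.58. Both genes were lower in males, and within the 4 groups r was 0.41. Tet2 and Tet3 ran in opposite directions (r = -0.46, permutation p = 0.0225, adjusted 0.315, rho = -0.51, permutation p = 0.0125, adjusted 0.176), with r = -0.34 without the 2 extreme mice and -0.16 within groups. No pair passed the adjustment.

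The genes most like each of the 8 over the 24 arrays were sought among 11780 genes with a mean of 5 or more. The 3 with the highest r are named as a description, without a test. Picking the highest of so many values raises r by selection, and shared regulation was not tested. Dnmt3b was left out as below background. Tet2 was nearest to Atf3 (r = 0.84, rho = 0.88), R3hdm2 (r = 0.82, rho = 0.77) and Nr4a3 (r = 0.82, rho = 0.79). Atf3 is a stress-induced transcription factor and Nr4a3 an orphan nuclear receptor of the early response genes. Nr4a3 was itself lower in males by a difference of -1.49 (adjusted p = 0.00258), and Atf3 had -0.61 (adjusted p = 0.0758). Without the 4 liver-rich arrays the 3 correlations were 0.85, 0.86 and 0.85.

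**Figure D4:**
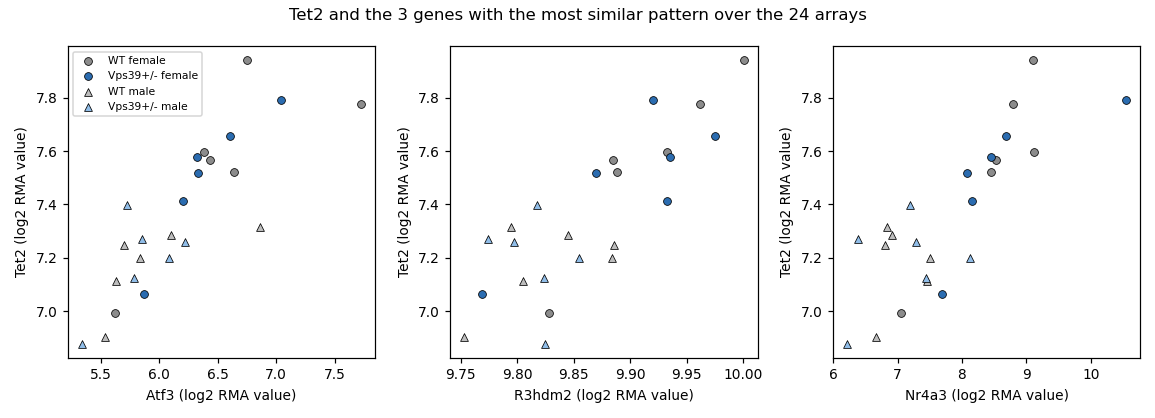
Tet2 against the 3 genes with the highest correlation to it, Atf3, R3hdm2 and Nr4a3, on log2 axes, with females as circles, males as triangles, WT in grey and Vps39+/- in blue (n = 24). The 2 females with low Tet2 also lie below the other 10 females for all 3 genes (r from 0.82 to 0.84).

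Tet3 was nearest to Atn1 (r = 0.74), Pfkfb3 (r = 0.71) and Rcor3 (r = 0.70). Pfkfb3 makes the activator of the glycolytic step run by phosphofructokinase, and it was higher in males by 1.49 (adjusted p = 0.000159). Atn1 and Rcor3, both linked to transcriptional repression, were higher in males by 0.22 (adjusted p = 0.0484) and 0.32 (adjusted p = 0.0314). Dnmt1 was nearest to Slc2a4 (r = 0.79), the insulin-responsive glucose transporter GLUT4, Ube2b (r = 0.74) and Trim72 (r = 0.74), which takes part in membrane repair of muscle fibres. Slc2a4 and Ube2b were lower in males, with differences of -0.17 (adjusted p = 0.0495) and -0.19 (adjusted p = 0.0327). The nearest genes of Uhrf1 were Disc1 (r = 0.81), Ms4a15 (r = 0.75) and Mcm3 (r = 0.73), a subunit of the replicative helicase. Those of Dnmt3a were Scx (r = 0.78), the tendon transcription factor scleraxis, Tceal8 (r = 0.72) and Asf1b (r = 0.71), a histone chaperone. Tet1 was nearest to Bmper (r = 0.76), a modulator of bone morphogenetic proteins, Rbfox2 (r = 0.70) and Rab24 (r = 0.70), and Dnmt3l to Gpatch1 (r = 0.72), Sec1 (r = 0.71) and Mzt1 (r = 0.67).

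Genes that act with the 8 were followed as lists. No gene of any list passed the adjusted threshold for genotype. Of 16 genes that help place or keep methylation, 10 had lower values in Vps39+/- mice and 6 higher (median -0.07), and 3 were lower at an unadjusted p under 0.05, a level that 2.62% of all probe sets reached in that direction. These were Usp7, a deubiquitinase that acts on Dnmt1 and Uhrf1 (-0.14, SE 0.06), Nsd1, a histone methyltransferase whose mark recruits Dnmt3a (-0.15, SE 0.07), and Lig1, the replicative DNA ligase (-0.20, SE 0.09), with adjusted p of 0.636, 0.647 and 0.655. Their sign was opposite to that of Dnmt1 and Uhrf1. Of 11 measured Tet partners and cofactor enzymes, 0 reached an unadjusted p under 0.05, and Cxxc4, Idh3a and Idh1 had the smallest p, with differences of 0.14, 0.03 and -0.06.

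Of 15 measured genes for the base excision steps of demethylation, Apobec1, a cytidine deaminase, had a difference of -0.26 (adjusted p = 0.629), Xrcc1, a repair scaffold, 0.13 and Neil1, a glycosylase, 0.15. Of 16 genes of the methyl donor cycle, 10 had lower values in Vps39+/- mice (median -0.07), led by Nnmt, which spends methyl groups on nicotinamide (-0.31, adjusted p = 0.718). Among 5 readers of methylated CG the differences of Zbtb4, Zbtb33 and Mbd3 were 0.08, 0.05 and -0.01.

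Genes that often stay silent through promoter methylation showed no called change. Of 17 germline genes measured, 3 were above background on 18 or more arrays, and Ddx4, a germ-cell helicase, was the only 1 at an unadjusted p under 0.05 (0.25, adjusted p = 0.618), with a mean of 2.83 and above background on 0 arrays. Of 16 imprinted genes 8 had higher and 8 lower values (median 0.00), with Dlk1 at 0.22 and Kcnq1ot1 at -0.26 (adjusted p = 0.681 and 0.754). Of 19 proliferation markers 12 had higher values in Vps39+/- mice (median 0.05). They were led by Top2a (0.30, adjusted p = 0.655, limma) and Cdk1 (0.22), which is below background. The list's mean per array ran from 4.82 to 5.06 in WT males (median 4.97) and 4.96 to 5.03 in Vps39+/- males (median 4.99). In females it ran from 4.87 to 5.01 in WT (median 4.89) and 4.87 to 5.07 in Vps39+/- (median 5.04). At an unadjusted p under 0.05 (limma), 4 of the 19 were higher and 0 lower in Vps39+/- females, against 5.36% and 2.96% of all probe sets. In males 0 were higher and 0 lower, against 3.19% and 3.82%. The part of dividing cells in the Dnmt1 and Uhrf1 values was not tested.

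**Figure D5:**
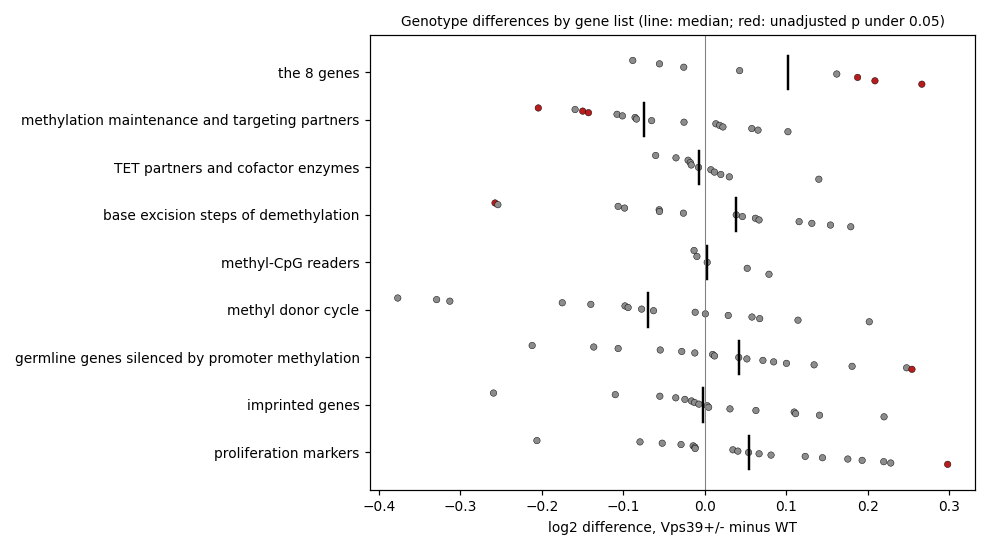
Log2 genotype difference of each measured gene (Vps39+/- minus WT), by list, with the list's median as a line and genes at an unadjusted p under 0.05 in red. The median of the 8 genes is 0.10 and that of their maintenance and targeting partners -0.07, and no point passes the adjusted threshold.

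Between the sexes, where 3.38% of all probe sets passed the adjusted threshold, 1 of 15 base excision genes, 1 of 5 readers, 2 of 16 methyl donor genes, 2 of 16 imprinted genes, 2 of 19 proliferation markers and 0 of 17 germline genes did. Gadd45g, a stress-response gene linked to active demethylation, was higher in males by 0.89 (SE 0.18, adjusted p = 0.00419), and Mbd2, a methyl-CG reader, by 0.19 (adjusted p = 0.0176). In the methyl donor cycle, Mtr, the methionine synthase, was higher in males by 0.31 (adjusted p = 0.00228) and Shmt2, the mitochondrial serine hydroxymethyltransferase, fell by 0.29 (adjusted p = 0.0340). The imprinted genes Grb10, an adaptor that dampens insulin signalling, and Peg3, a zinc finger gene, fell in males by 0.65 (adjusted p = 0.00151) and 0.85 (adjusted p = 0.00365). The proliferation markers Mki67 and Mcm3 were higher in males by 0.45 (adjusted p = 0.0143) and 0.30 (adjusted p = 0.0484), with Mki67 above background on 4 of 24 arrays. Of 16 maintenance and targeting partners and 11 Tet partners, 0 passed.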

How the data were processed

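Affymetrix Clariom S arrays were used on RNA of 24 mouse tibialis anterior muscles, from whole homogenised muscle. The authors deposited log2 values, which per the labels were made with Affymetrix Expression Console 1.4.1.46 by RMA, a method that subtracts background, equalises the arrays' distributions and summarises probes. RMA compresses differences of dim genes. Of 28846 probe sets, 6640 controls and 2634 without a gene symbol were not tested, leaving 19572. As arrays have no read depth, precision is limited by the number of mice. WT mice were littermates of Vps39+/- mice, but no source pairs single mice across groups.

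Groups came from the labels. Differences were tested with limma 3.58.1 in R 4.3.3, two-sided, with Benjamini-Hochberg adjustment over 19572 probe sets, threshold 0.05. Genotype was fitted over 24 mice without covariates, and the other comparisons as contrasts of 4 group means. Single genes were compared by permutation (exact, or 100000 draws) with scipy 1.17.1, and correlations of gene pairs by permutation with numpy 2.4.6. The test script was run on simulated data. The members, lists and tests were chosen with earlier results of these data known. From each list up to 3 genes of smallest p for genotype, and those past the threshold for sex, are named. Alternatives were other normalisations, probe filters, array weights, a trended robust prior, sex or liver mean as covariates, the title number as a block, other background references, the study's unpaired test, and leaving out each mouse.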

Additional observations from a re-analysis of the deposited data

How the results depend on the processing

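Of 1382 values recomputed for the 40 results of the 8 genes under the alternatives, 1304 kept their direction and their side of the threshold, 13 lost the threshold and 65 changed sign. The 13 were all of the sex difference of Tet2: its value was -0.34 (adjusted p = 0.0541) with the arrays' medians made equal, -0.31 with the title number as a block, and -0.41 to -0.31 when each mouse was left out. In 28 of the 40 results no alternative changed the sign. The cause of these changes was not tested.

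Genes called for genotype numbered 1 with array weights, 4 with the title number as a block and 0 to 3 when each mouse was left out, against 0. In females the block gave 2, and in males leaving out a mouse gave 0 to 1. No member was among the calls at an adjusted p under 0.05. Arrays above background fell to 7 for Dnmt3l and 3 for Tet1 with the panel's 99th percentile, and to 0 for Dnmt1, Dnmt3l and Tet1 and 3 for Uhrf1 with the negative controls.

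The values after a sign change reached up to 0.18, for the Uhrf1 interaction without the 4 liver-rich arrays. For the interaction, Dnmt1 became 0.0069 with cyclic loess, 0.052 with array weights, 0.046 without the 4 liver-rich arrays and 0.017 with the liver mean as a covariate. Uhrf1 became 0.0077 with loess, 0.18 without those arrays and 0.11 with the covariate. Tet3 became 0.043 with loess and 0.023 with weights. Dnmt3l became 0.020 with the block, 0.0029 without those arrays and 0.0073 with the covariate. Under the block Dnmt3a became -0.059 and Tet2 -0.053. The Tet2 genotype difference became 0.047 with the block, 0.047 in females and -0.0059 in males, and in males -0.063 without those arrays and -0.020 with equal medians. Dnmt3l in females became 0.022 with weights, and the Dnmt3b sex difference -0.00074 without those arrays.

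Leaving out each mouse gave interactions of -0.11 to 0.042 for Dnmt1, -0.10 to 0.059 for Uhrf1, -0.16 to 0.0013 for Dnmt3l, -0.015 to 0.19 for Tet2 and -0.065 to 0.038 for Tet3. Genotype differences ranged from -0.068 to 0.026 for Tet2 over all mice, from -0.18 to 0.026 in females and from -0.044 to 0.073 in males. They ranged from -0.097 to 0.068 for Dnmt3l in females and from -0.019 to 0.084 for Tet3 in males. Each gene had 1 probe set, so the choice of another could not be run. No paired analysis was possible because no label pairs single mice across groups, and the title number, which several groups share in part, was used as a block instead. Dnmt3b lies below background and Tet1 near it, where RMA compresses differences, so the size of their differences is uncertain.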
